A study of Zea mays with 4 samples.

Results

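The genes on the mitochondrial chromosome of maize were examined in RNA from leaf protoplasts and from whole leaf. They are the 229 of 46430 rows of the deposited count tables whose chromosome is Mt, chosen by that label alone and not by any measured value. The material of interest was protoplasts, single cells freed from the leaf by enzymes that digest the cell wall, and it was set against homogenized leaf segments. All samples came from the B73 inbred line and from the distal 6 cm of leaf 2 of V2 seedlings. Per the methods, tissue for protoplasts was scored, infiltrated and incubated in a cysteine solution, then held for hours in enzyme solution and washed. Leaf tissue was instead ground in liquid nitrogen when the tissue for protoplasts was harvested. The part of these steps in the values was not tested. Each library was a pool of segments from several plants, so that plants cannot be told apart. The labels and the methods differ on the size of these pools. The labels describe 2 protoplast and 2 leaf libraries. The table of leaf 1 used here held 18609 intact rows, of which 0 were mitochondrial, so the comparison rests on protoplast 1 and protoplast 2 against leaf 2, and leaf 1 was not analysed here for these genes.

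Mitochondria carry a small genome inherited from their bacterial ancestor. In plants it encodes some subunits of the respiratory complexes I, III and IV and of ATP synthase, proteins that attach heme to cytochrome c, and part of the mitochondrial ribosome, while most mitochondrial proteins are made from nuclear genes and imported. Plant mitochondrial genomes are also known for large repeats, for open reading frames of unknown function (ORFs), and for stretches of plastid DNA that were copied into them. The poly(A) tails of organelle transcripts are short-lived marks that lead to decay, and the labels give the sequenced molecule as polyA RNA. How much organelle RNA this selection kept in each library was not measured.

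The libraries held 47061988 counts in protoplast 1, 42815615 in protoplast 2 and 41792981 in leaf 2. The 12 bundle sheath marker genes, all of them detected in every one of these libraries, summed to 1315 and 1177 CPM (counts per 1000000 counts of the library) in protoplasts 1 and 2 and to 36845 CPM in leaf 2, whereas the 6 mesophyll markers summed to 65962 and 62448 CPM in protoplasts and 71298 CPM in leaf 2. This difference moved with the comparison and its part in the mitochondrial values was not tested, and in bulk RNA fewer cells of a type cannot be told apart from less RNA per cell. Across 23262 genes tested with edgeR's quasi-likelihood test, 18.5% were higher in protoplasts and 20.4% were lower, with a median log2 fold change of -0.04. A gene was called when its p, adjusted by Benjamini and Hochberg's method over all genes, was under 0.05 and its log2 fold change was above 1 or below -1. Leaf 2 was the only leaf library in this fit, so the spread came from the protoplast pair, and leaf was assumed to vary as protoplasts do. The methods describe replicates as separately grown plants, and p-values measure the spread between these pools. Whether leaf varies as protoplasts do was not tested. For the 8984 genes that could also be fitted with leaf 1, 91.2% of the 1770 called higher with 4 libraries and 87.2% of the 2077 called lower were called with 3, and 98.2% of the 1645 higher and 97.9% of the 1850 lower calls with 3 libraries were called with 4. Among genes with 2 to 51 counts in leaf 2, 82.9% of the higher calls with 4 libraries were made with 3. Both fits share 3 libraries, so these shares are a description only.

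Names from NCBI RefSeq were matched to 208 of the 229 rows through their locus tags, with the same start and end in all 208, and 21 rows have identifiers only. The named rows comprise 31 protein genes of known mitochondrial function (hereafter core protein genes), 3 ribosomal RNAs, 19 transfer RNAs, 127 ORFs and 28 rows whose name ends in -ct, which marks sequence of chloroplast origin. The genes nad1, nad2 and nad5 were not analysed here.

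Most of the mitochondrial counts lay in the rows of chloroplast origin. Mitochondrial rows held 288198 counts in protoplast 1, 613036 in protoplast 2 and 179932 in leaf 2, or 0.612% (exact binomial 95% interval 0.610 to 0.615), 1.43% (1.43 to 1.44) and 0.431% (0.429 to 0.433) of each library. Both protoplast shares were above that of leaf 2, by 1.42-fold and 3.33-fold, and they differed from each other more than protoplast 1 differed from leaf 2. Here and elsewhere, counting intervals and floors leave out every error but that of counting, and PCR copies were not told apart from separate molecules. Rows of chloroplast origin took 89.5% of the mitochondrial counts in protoplast 1, 91.5% in protoplast 2 and 91.7% in leaf 2. Ribosomal RNAs took 7.29%, 6.13% and 6.43% in the same order, and the 31 core protein genes took 0.765%, 0.407% and 0.213%. The core protein genes were thus a small part of the whole, at 46.9 and 58.2 CPM in protoplasts 1 and 2 and 9.16 CPM in leaf 2, 5.11-fold and 6.35-fold higher in protoplasts. Rows of chloroplast origin differed by less and by amounts that were unlike in the 2 protoplast libraries, at 5481 and 13101 CPM in protoplasts against 3950 CPM in leaf 2.

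**Figure D1:**
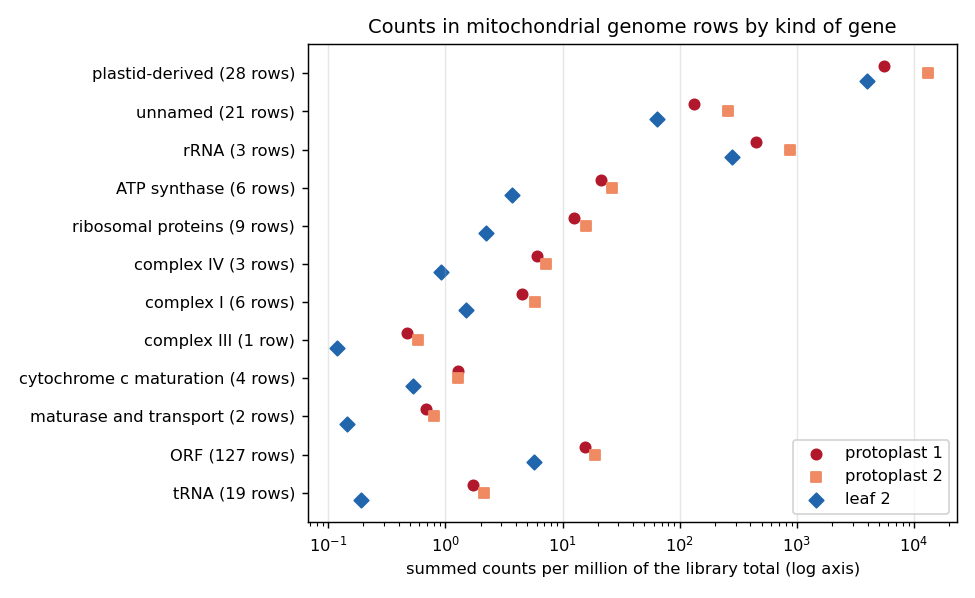
Summed CPM (log axis) in mitochondrial genome rows, by kind of gene, for protoplast 1, protoplast 2 and leaf 2. Each symbol is 1 library. Both protoplast libraries lie to the right of leaf 2 in every kind, and the rows of chloroplast origin stand highest in all 3 libraries.

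Of the 229 rows, 83 had enough counts to be tested, 49 of these were called higher in protoplasts and 1 was called lower, against the 18.5% and 20.4% of all genes tested given above. These were 59.0% and 1.2% of the 83, and their median log2 fold change was 2.51, or 2.38 when the 4 tested rows at 0 in leaf 2 were set to the bound given by a floor of 3 counts. A row passes the filter on low counts also where only protoplasts have counts, so these shares describe rows that passed and not all members. Of the 42 rows with at least 10 counts in leaf 2, a filter chosen after seeing the data, 27 were called higher, and with DESeq2 29 of the 83 were. The share of all genes called was not computed for this filter or for DESeq2, so these counts have no background beside them. Of the 31 core protein rows, 27 were tested and 21 were called higher, with a median of 2.47, or 2.46 with rows at 0 in leaf 2 at their bound. The remaining 146 rows were too low to test, and 45 rows were at 0 in all 3 libraries.

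Some rows had identical counts. The table holds 16 pairs of repeated rows of equal length, and 15 pairs had the same counts in every library, 10 of them above 0. The copies atp1-a1 and atp1-a2 both had 131 counts in protoplast 1, 122 in protoplast 2 and 31 in leaf 2. Repeated rows are therefore not separate measurements, but both rows of a pair enter the sums, ratios and counts of rows given for each kind of gene. With 1 row of each such pair, 46 of 78 tested mitochondrial rows were higher and 1 was lower. The repeated row orf99-b1 also had the same 21, 34 and 28 counts as a nuclear row on chromosome 1, Zm00001d032656 (233337054 to 233340892). All 18 rows that lie wholly inside the exons of another row were at 0, and 12 of the 49 rows called higher overlap another mitochondrial row, so counts of overlapping rows are uncertain.

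Every tested subunit of ATP synthase was called higher in protoplasts, against 18.5% of all genes tested. ATP synthase makes ATP from the proton gradient across the inner membrane. The gene atp4 (ZeamMp051, Mt 138553 to 139212), which codes for a subunit of the peripheral stalk, had 134 counts in protoplast 1, 164 in protoplast 2 and 8 in leaf 2. Both protoplast libraries stood far above leaf 2, at 14.9-fold (exact 95% counting interval 7.34 to 35.2) and 20.0-fold (9.92 to 47.1), and the fitted log2 fold change was 4.48 (standard error 0.55, edgeR adjusted p = 0.00016). One end of its row overlaps the transfer RNA row trnR-a by a few bases. The gene atp6 (Mt 562726 to 563958), for the proton channel subunit a, had 257 and 313 counts in protoplasts 1 and 2 and 28 in leaf 2, with a log2 fold change of 3.63 (standard error 0.41, edgeR adjusted p = 0.000112). The gene atp9 (Mt 299238 to 299462), for the subunit that forms the rotating ring, had 318 and 368 counts in protoplasts and 51 in leaf 2, with a log2 fold change of 3.03. For both atp6 and atp9, leaf 2 lay below both protoplast libraries, a description only because there is 1 leaf library and the share of all genes in this order was not computed. The gene atp8 had 38 and 52 counts in protoplasts against 7 in leaf 2, and its log2 fold change was 2.95. The gene atp1 showed the smallest change of the group, 2.29 (standard error 0.42, edgeR adjusted p = 0.0018), which was 3.75-fold and 3.84-fold in the 2 protoplast libraries.

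The 3 genes of complex IV, cytochrome c oxidase, which passes electrons to oxygen, were all called higher, against 18.5% of all genes tested. The gene cox3 (Mt 441570 to 442367) had 116 counts in protoplast 1, 110 in protoplast 2 and 9 in leaf 2, a log2 fold change of 3.90 (standard error 0.52, edgeR adjusted p = 0.00027). The gene cox2, whose product receives electrons from cytochrome c, had 110 and 135 counts in protoplasts and 19 in leaf 2, and cox1, for the subunit with the catalytic center, had 60 and 65 counts in protoplasts and 10 in leaf 2. Their log2 fold changes were 2.96 and 2.90. Leaf 2 lay below both protoplast libraries for each gene, and the share of all genes in this order was not computed. The gene for cytochrome b of complex III, cob, had 22 and 25 counts in protoplasts and 5 in leaf 2, a log2 fold change of 2.47 (standard error 0.83, edgeR adjusted p = 0.035).

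Complex I, the NADH dehydrogenase at the start of the chain, was less uniform. Of its 6 rows, 5 were tested and 4 were called higher, against 18.5% of all genes tested. The gene nad3 (Mt 262806 to 263162) had 112 and 124 counts in protoplasts and 30 in leaf 2, a log2 fold change of 2.25 (standard error 0.45, edgeR adjusted p = 0.0030). The gene nad4 had 16 and 34 counts in protoplasts and 4 in leaf 2, nad7 had 29 and 35 in protoplasts and 9 in leaf 2, and nad9 had 40 and 46 in protoplasts and 14 in leaf 2. Their log2 fold changes were 2.91, 2.09 and 1.89, and all 3 calls, like that of cob, were lost with DESeq2. The calls of nad7 and nad9 were also lost without TMM scaling, at 1.72 and 1.51, and that of nad4 with limma, at 2.62. The gene nad6 stood apart from all other core protein genes, with 12 counts in protoplast 1, 4 in protoplast 2 and 6 in leaf 2, so that leaf 2 lay between the protoplast libraries. Its log2 fold change of 0.63 (standard error 1.05, edgeR adjusted p = 0.66) did not pass. The counting interval of its fold was 0.617 to 5.77 in protoplast 1 and 0.135 to 2.74 in protoplast 2. The row of nad4L had 3 and 4 counts in protoplasts and 0 in leaf 2, which gives no usable fold. Of the 31 core protein rows, nad6 was the only one in which leaf 2 was not below both protoplast libraries. The share of all genes in this order was not computed, so with 1 leaf library this is a description only.

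**Figure D2:**
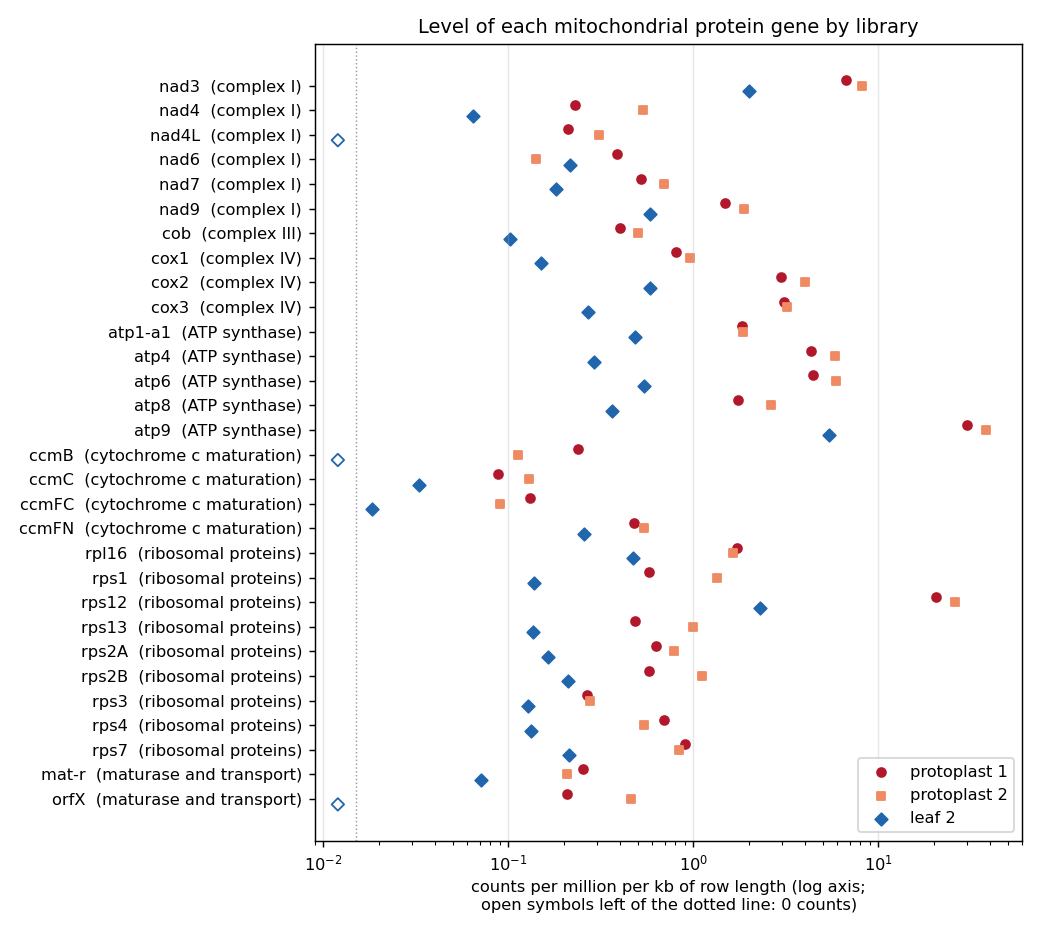
CPM per kb of row length (log axis) of the mitochondrial protein genes, ordered by complex, in protoplast 1, protoplast 2 and leaf 2. Each symbol is 1 library, open symbols left of the dotted line mark 0 counts, and atp1 is drawn once. Leaf 2 lies left of both protoplast libraries for every gene drawn except nad6, and the share of all genes in this order was not computed.

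Compared per length, the order of the core protein genes began alike in all libraries. In CPM per kb, atp9 was highest at 30.0 in protoplast 1, 38.2 in protoplast 2 and 5.42 in leaf 2, followed by rps12 at 20.3, 26.01 and 2.28, and by nad3 at 6.67, 8.11 and 2.01. The rows of these genes are shorter than 500 bp, the upper end of the selected fragments, and the part of row length in this order was not tested. In protoplasts the counting intervals of rps12 and nad3 were apart in both libraries, while in leaf 2, where they rested on 36 and 30 counts, the intervals overlapped. Below these, the order changed. The gene atp4 ranked 5 in both protoplast libraries and 11 in leaf 2, and cox3 ranked 6 and 7 in protoplasts and 12 in leaf 2, whereas nad9 ranked 12 and 9 in protoplasts and 4 in leaf 2. Below the first 3, leaf 2 had at most 31 counts in a row. Of the 29 pairs of neighbours in the order, only 4 in each protoplast library and 2 in leaf 2 had counting intervals that did not overlap, and the 2 in leaf 2 were atp9 over rps12 and nad3 over nad9.

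Genes for the mitochondrial ribosome were measured through 9 proteins and 3 RNAs. All 9 protein rows were tested and 6 were called higher, against 18.5% of all genes tested, with a median log2 fold change of 2.46. The small subunit protein gene rps12 (ZeamMp092, Mt 262384 to 262761) had 362 counts in protoplast 1, 421 in protoplast 2 and 36 in leaf 2. Protoplasts were 8.93-fold (6.33 to 13.0) and 11.4-fold (8.11 to 16.5) above leaf 2, with a log2 fold change of 3.72 (standard error 0.37, edgeR adjusted p = 5.0e-05), the lowest adjusted p among the core protein genes. The row of nad3 lies next to that of rps12, and the ratio of rps12 to nad3 counts, which does not depend on the scaling of libraries, was 3.23 in protoplast 1, 3.40 in protoplast 2 and 1.20 in leaf 2. The large subunit gene rpl16, which overlaps rps3, had 45 and 39 counts in protoplasts and 11 in leaf 2, a log2 fold change of 2.18. The other genes called higher were rps1, rps2A, rps2B and rps4, with log2 fold changes of 3.12, 2.46, 2.38 and 2.54. Of these, rps1 had only 3 counts in leaf 2, and its folds of 4.14 and 9.76 had counting intervals of 1.16 to 22.5 and 3.04 to 49.98. With DESeq2 the calls of rps1, rps2B, rps4 and rpl16 were lost, and that of rps1 was also lost with limma. The rows of rps3, rps7 and rps13 had log2 fold changes of 1.44, 2.35 and 2.73 and did not pass, with edgeR adjusted p of 0.149, 0.062 and 0.101 and at most 9 counts in leaf 2.

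The ribosomal RNAs had smaller fold changes than most core protein genes, a difference that was not tested, and they differed between the protoplast libraries. The 26S RNA row rrn26 (Mt 400215 to 403766) had 17399 counts in protoplast 1, 31498 in protoplast 2 and 9283 in leaf 2, and the 18S RNA row rrn18 (Mt 419620 to 421587) had 3612, 6094 and 2278. Both were called higher, with log2 fold changes of 1.71 (standard error 0.53, edgeR adjusted p = 0.032) and 1.40 (standard error 0.47, edgeR adjusted p = 0.047), and the call of rrn18 was lost when only genes with at least 10 counts in every library were tested. The fold over leaf 2 of rrn26 was 1.66 in protoplast 1 and 3.31 in protoplast 2, and the counting intervals of these folds, 1.62 to 1.71 and 3.24 to 3.39, lay apart. The 5S RNA row rrn5 had 0 and 3 counts in protoplasts and 2 in leaf 2. Core protein genes had 10.5 and 6.63 counts per 100 ribosomal RNA counts in protoplasts 1 and 2 and 3.31 in leaf 2, a ratio that needs no library scaling and was above leaf 2 in both protoplast libraries. With 1 leaf library this ratio carries no test.

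**Figure D3:**
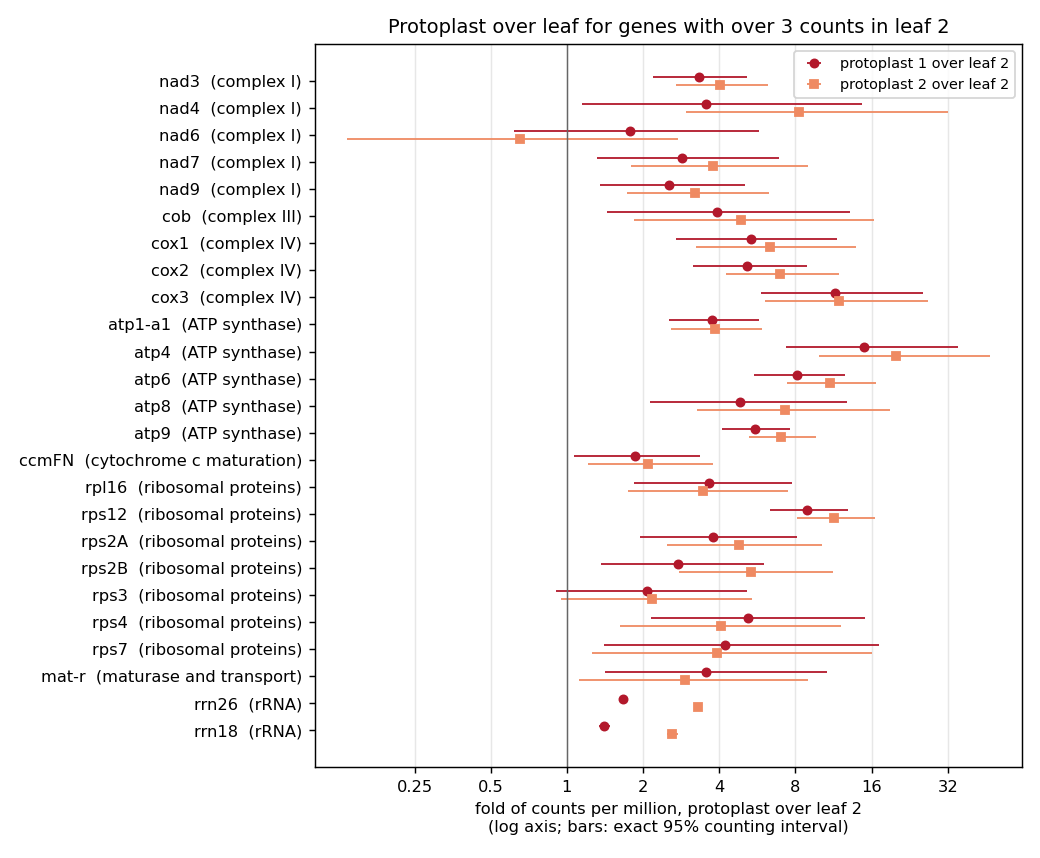
Fold of CPM in protoplast 1 and in protoplast 2 over leaf 2 (log axis) for core protein genes with over 3 counts in leaf 2 and for 2 ribosomal RNAs, with exact 95% counting intervals as bars. The vertical line marks equal levels. The genes atp4, cox3, rps12 and atp6 lie farthest to the right, and nad6 has 1 library on each side of the line.

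The remaining core protein genes had few counts. Of the 4 genes for cytochrome c maturation, ccmFN was the only row tested. It had 42 and 43 counts in protoplasts and 20 in leaf 2, a log2 fold change of 1.35 (standard error 0.56, edgeR adjusted p = 0.076), which did not pass. The rows of ccmB, ccmC and ccmFC had between 3 and 8 counts in each protoplast library and 0 or 1 in leaf 2. The maturase gene mat-r, which acts in the splicing of mitochondrial introns, had 24 and 18 counts in protoplasts and 6 in leaf 2 and did not pass, with a log2 fold change of 2.03 (edgeR adjusted p = 0.066). The row orfX, the name under which the gene for the MttB-like membrane transporter is listed, had 8 and 16 counts in protoplasts and 0 in leaf 2, at least 2.37-fold and 5.21-fold higher against a floor of 3 counts. It was called higher with edgeR and not with DESeq2, and the repeated row orf99-a1, elsewhere on the chromosome, had the same counts in all 3 libraries, and whether they share reads was not examined.

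The rows of chloroplast origin changed in both directions. Of 14 tested, 9 were called higher and 1 was called lower, against 18.5% and 20.4% of all genes tested. The row rps7-ct (Mt 332438 to 332908), for a plastid ribosomal protein, had 88006 counts in protoplast 1, 95899 in protoplast 2 and 15769 in leaf 2, a log2 fold change of 2.82 (standard error 0.42, edgeR adjusted p = 0.00050). The row ndhB-ct, for a subunit of the plastid NADH dehydrogenase-like complex, had 10055 and 11842 counts in protoplasts and 1927 in leaf 2 (log2 fold change 2.79), and rpl2-ct, for another plastid ribosomal protein, had 1491 and 1252 in protoplasts and 171 in leaf 2 (log2 fold change 3.26). The row rps12-ct (ZeamMp118), named in the study's marker tables, had 17226 and 10308 counts in protoplasts and 2690 in leaf 2, with a log2 fold change of 2.59 (standard error 0.37, edgeR adjusted p = 0.00038). The row orf146-ct, an ORF, had 10148 and 11783 counts in protoplasts and 2192 in leaf 2, with a log2 fold change of 2.61. In all of these, leaf 2 lay below both protoplast libraries, and the share of all genes in this order was not computed.

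The only mitochondrial row called lower was rbcL-ct (Mt 349025 to 350442), a copy of the gene for the large subunit of Rubisco, the enzyme that fixes carbon dioxide, which in maize acts in bundle sheath chloroplasts. It had 2368 counts in protoplast 1, 2159 in protoplast 2 and 12435 in leaf 2. It fell by 2.19 on the log2 scale (standard error 0.27, edgeR adjusted p = 0.00017), and the protoplast libraries lay close together and far below leaf 2. The fall moved with that of the bundle sheath markers given above, and the part of the markers was not tested. The largest fitted rise of all members was that of orf247-ct (Mt 346758 to 347501), an ORF that overlaps rpl2-ct, chosen after its values were seen. It had 750 counts in protoplast 1, 668 in protoplast 2 and 5 in leaf 2, a log2 fold change of 7.37 (standard error 0.38, edgeR adjusted p = 1.4e-06).

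The row with the most counts, rrn16-ct (ZeamMr001, Mt 328030 to 329520), a copy of the plastid 16S ribosomal RNA gene, separated the protoplast libraries from each other. It had 112285 counts in protoplast 1, 403147 in protoplast 2 and 113291 in leaf 2, or 39.0%, 65.8% and 63.0% of all mitochondrial counts. In CPM, protoplast 1 was at 0.880 times leaf 2 and protoplast 2 at 3.47 times, so leaf 2 lay between them, and the log2 fold change of 1.54 (standard error 1.12, edgeR adjusted p = 0.35) did not pass. It was called higher without TMM scaling, at 1.12, and without the filter on low counts, at 1.497. The row orf121-a-ct, with 14744 and 22989 counts in protoplasts and 15622 in leaf 2, also did not pass (log2 fold change 0.58, edgeR adjusted p = 0.31). Of the falls in the naming rule, orf134-a-ct had 320 and 389 counts in protoplasts and 684 in leaf 2 (log2 fold change -0.66, edgeR adjusted p = 0.077), and trnI-ct at Mt 326704 to 327726 had 97 and 149 counts in protoplasts and 167 in leaf 2 (log2 fold change -0.14). Neither passed.

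The plastid genome of the same tables carries the same genes, and its rows were set beside the copies. The plastid rows of rps7 had 101826 and 101912 counts in protoplast 1, 100358 and 100462 in protoplast 2, and 16422 and 16456 in leaf 2, so the mitochondrial copy held 86.4% to 96.0% of the count of a plastid row in each library. The same share was 98.3% to 101% for ndhB, 13.5% to 14.6% for rpl2 and 12.1% to 13.9% for rbcL, and 129% to 142% for rrn16-ct against the plastid ribosomal RNA rows of the same length. For these 5 genes the share differed little between the libraries, although the genes moved in opposite directions. Other copies held almost none of the plastid count. The row rps19-ct had 2 and 3 counts in protoplasts and 0 in leaf 2, and rpl23-ct had 6 and 4 in protoplasts and 1 in leaf 2, beside 8618 and 6677 in protoplasts and 1493 in leaf 2 for a plastid row of rps19 and 4916 and 3419 in protoplasts and 556 in leaf 2 for one of rpl23. The log2 fold changes of plastid rps7, ndhB, rpl2 and rbcL were 2.89, 2.82, 3.28 and -1.997, beside 2.82, 2.79, 3.26 and -2.19 for the mitochondrial copies. Of 179 plastid rows, 134 were tested, 93 were called higher and 1 was called lower, against 18.5% and 20.4% of all genes tested. The median log2 fold change of the tested plastid rows was 1.94. How the counting treated reads that fit both genomes was not given in the sources used here, so the counts of -ct rows cannot be assigned to either genome.

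**Figure D4:**
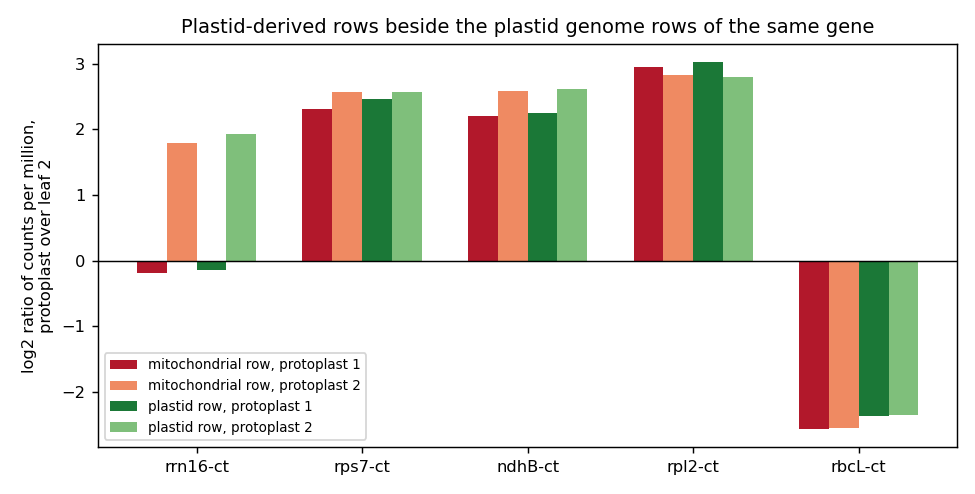
Log2 ratio of CPM, protoplast over leaf 2, for 5 rows of chloroplast origin on the mitochondrial chromosome and for a plastid genome row of the same gene, with protoplast 1 and protoplast 2 as separate bars and 0 as equal level. The plastid row for rrn16-ct was matched by its length. The bars of both genomes have the same sign in every library, above 0 for rps7, ndhB and rpl2, below 0 for rbcL, and on both sides of 0 for rrn16-ct.

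Transfer RNAs were nearly absent from the counts. The 19 rows outside the chloroplast group summed to 81 counts in protoplast 1, 92 in protoplast 2 and 8 in leaf 2, and the part of the selection of fragments of 250 to 500 bp in this was not tested. The row trnD, for the transfer RNA of aspartate, had 43 and 61 counts in protoplasts and all 8 of the counts of leaf 2, with a log2 fold change of 2.97 (standard error 0.69, edgeR adjusted p = 0.0066). The row trnR-a, which overlaps atp4, had 13 and 7 counts in protoplasts and 0 in leaf 2, at least 3.85-fold and 2.28-fold higher against a floor of 3 counts.

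Among the 127 ORFs, 25 were tested, 11 were called higher and 0 were called lower, against 18.5% and 20.4% of all genes tested. Only 8 of the 127 had at least 10 counts in leaf 2, while 17 had as many in both protoplast libraries. Rows could pass the filter through protoplasts alone, and a row with few leaf counts could hardly be called lower. The shares of all genes are therefore no like background for these calls. Of the 25, 13 had an unadjusted p under 0.05, for which no share over all genes was computed. The median log2 fold change of the tested ORFs was 2.61, or 2.56 with the rows at 0 in leaf 2 at their bound. The ORFs named here were chosen after their values were seen, except orf99-b1. The row orf99-d, 223 nt from atp4, had 121 and 120 counts in protoplasts and 33 in leaf 2 (log2 fold change 2.13, standard error 0.43, edgeR adjusted p = 0.0030). The row orf161 at Mt 540883 to 541363 (ZeamMp178), 597 nt from cox2, had 53 and 61 counts in protoplasts and 6 in leaf 2 (log2 fold change 3.50). The row orf105-c had 62 and 65 counts in protoplasts and 12 in leaf 2 (log2 fold change 2.66). By contrast, orf99-b1 had 21 and 34 counts in protoplasts and 28 in leaf 2, with a log2 fold change of 0.27 that did not pass and turned to -0.12 without TMM scaling. ORFs took 33.1 and 32.6 counts per 100 core protein counts in protoplasts and 62.4 in leaf 2. Both rows of repeated pairs enter this ratio, among them orf99-b1 and orf99-b2 with 28 counts each in leaf 2. Of the ORFs within 500 nt of a core protein or ribosomal RNA row, 4 of 19 had at least 10 counts in both protoplast libraries, and 13 of the 108 farther away did.

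Unnamed rows, which have no entry in the table of names, were led by ENSRNA049457570, with 1063 counts in protoplast 1, 5741 in protoplast 2 and 1143 in leaf 2. Like rrn16-ct it was somewhat lower than leaf 2 in protoplast 1, at 0.826 times its CPM, and above it in protoplast 2, and it did not pass. ENSRNA049457405, the row just before rps12-ct, had 2668 and 2788 counts in protoplasts and 514 in leaf 2 and was called higher (log2 fold change 2.68), and ENSRNA049457319 had 137 in both protoplast libraries and 172 in leaf 2 (log2 fold change -0.06) and did not pass. In all, 13 unnamed rows were tested and 4 were called higher, against 18.5% of all genes tested.

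A second fit asked which rows changed relative to the mitochondrial total instead of the whole library. With each library scaled to its own mitochondrial counts, edgeR called 0 of the 83 rows in either direction, beside 0.0086% of all genes tested higher and 0.812% lower, and 1 of the 83 rows had an unadjusted p under 0.05. With TMM among mitochondrial rows it called 5 higher and 10 lower, and without rrn16-ct 5 higher and 5 lower. The share of all genes called was not computed for these variants, so their counts have no background beside them. The median standard error over all genes was 1.97 on this scale and 0.32 on the whole-library scale. The library sizes used were 288198 in protoplast 1 and 613036 in protoplast 2, which sets the protoplast pair apart for every gene. Rows of chloroplast origin made up most of these sizes. With this spread, 0 calls do not show that the rows kept their share of the total. On this scale the log2 fold change was positive for 25 of the 27 tested core protein rows, among them atp4 at 3.03 and rps12 at 2.28, and negative for nad6 at -0.54 and ccmFN at -0.05. It was 0.12 for rrn26, -0.17 for rrn18 and -0.27 for rrn16-ct.

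Nuclear genes for mitochondrial proteins were read from a list. These 65 genes, which are not all such genes, are markers of cell clusters that the study chose from single-cell data of protoplasts. Genes detected in protoplasts could enter the list more readily, so all genes tested are not a like background. Of the 65, 15 were called higher and 12 lower in the 3-library fit, with a median log2 fold change of 0.08. These counts lie near the 18.5% higher and 20.4% lower of all genes in that fit. In the fit with both leaf libraries, 29 of the 65 were tested, 8 were called higher and 5 lower, beside 19.6% higher and 23.4% lower among 9017 genes. Of 11 respiratory chain genes, 2 were called higher and 3 lower in the 3-library fit, against the same 18.5% and 20.4%. The external NADH dehydrogenase NDB4 (Zm00001d049597), which bypasses complex I, had 28119 counts in protoplast 1, 32242 in protoplast 2 and 596 in leaf 2, a log2 fold change of 5.94 (standard error 0.48, edgeR adjusted p = 1.3e-05). The alternative oxidase AOX3 (Zm00001d002434), which passes electrons to oxygen without complexes III and IV, had 707 and 715 counts in protoplasts and 0 and 4 in leaf 1 and leaf 2, a log2 fold change of 8.77 in the fit with both leaf libraries (edgeR adjusted p = 2.3e-05) whose size is uncertain with so few leaf counts. AOX1 (Zm00001d017727) went the other way, with 25 and 23 counts in protoplasts and 444 in leaf 2, and fell by 3.94 on the log2 scale.

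Of 14 nuclear genes for carriers, which move metabolites and ions across the inner membrane, 9 were called higher and 2 lower in the 3-library fit, against 18.5% and 20.4% of all genes. Because the list was drawn from single-cell data of protoplasts, these shares are not a like background. Among carriers chosen after their values were seen, the ADP/ATP carrier gene Zm00001d045884 had 1958 and 2657 counts in protoplasts and 0 in leaf 2, at least 580-fold and 865-fold higher against a floor of 3 counts, and the substrate carrier gene Zm00001d009171 had 2883 and 3982 in protoplasts and 43 in leaf 2 (log2 fold change 6.61). In the other direction, the phosphate transporter gene Zm00001d018183 had 262 and 259 counts in protoplasts and 1723 in leaf 2, and fell by 2.46 on the log2 scale. The calcium uniporter gene Zm00001d043089 had 801 and 1288 counts in protoplasts and 57 and 47 in leaf 1 and leaf 2 (log2 fold change 4.76 with both leaf libraries, standard error 0.38). Of 8 nuclear genes for mitochondrial gene expression, 1 was called lower and the others were not called, against the same 18.5% higher and 20.4% lower of all genes. These genes, too few to be told apart from those shares, had a median log2 fold change of -0.05. A rhodanese-like gene, Zm00001d025081, had 20 and 17 counts in protoplasts and 3 and 2 in leaf 1 and leaf 2 (log2 fold change 3.20). Among the 29 genes tested with both leaf libraries, the largest falls were those of an AAA-ATPase gene, Zm00001d007773, at -2.10, of the acyltransferase of the branched-chain keto acid dehydrogenase, Zm00001d040670, at -2.08, and of an alanine-glyoxylate aminotransferase, Zm00001d027861, at -1.36.

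**Figure D5:**
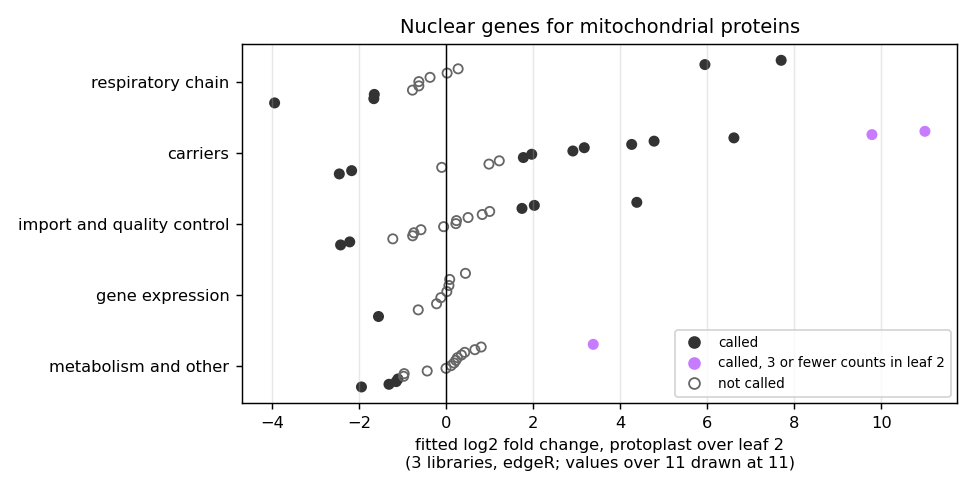
Fitted log2 fold change, protoplast over leaf 2, of 65 nuclear genes for mitochondrial proteins by role, from the 3-library edgeR fit. Filled points were called, purple points were called with 3 or fewer counts in leaf 2, where the fitted value is no measure of size, and open points were not called. Carriers lie mostly to the right of 0 with a median of 2.44. Genes for mitochondrial gene expression have a median of -0.05, beside -0.04 over all genes tested.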

How the data were processed

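RNA of protoplasts and of leaf segments was sequenced. Per the labels and methods, the authors aligned reads to the B73 genome, build AGPv4, and counted them per gene. The submitters' processing notes name Trim Galore 0.6.5, STAR 2.5.1b and featureCounts 2.0.1. The deposited values are raw counts, not normalized, with coordinates in AGPv4. Settings for strand and for reads that map to several places were not given in the sources used here.

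Tests were run in edgeR 4.0.16, and alternatives in DESeq2 1.42.0 and limma 3.58.1, under R 4.3.3. Of the leaf 1 lines, 10 were damaged, and rows were used only where intact. Genes were filtered with filterByExpr, scaled by trimmed mean of M-values (TMM) and tested with edgeR's robust quasi-likelihood test over all genes. CPM and fold per library use library totals without TMM, and the fitted log2 fold changes use TMM factors of 0.977 in protoplast 1, 0.864 in protoplast 2 and 1.18 in leaf 2, so they lie above the log2 of those folds. Without TMM the median of all genes shifted by -0.36. Standard errors are the fold change divided by the root of the F statistic. At these depths 3 counts were 0.0637 to 0.0718 CPM. The script was tested on simulated data in which leaf varied as protoplasts did and changes were placed only in genes above a count limit. That test does not cover members with few leaf counts or a leaf spread of another size.

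Names come from RefSeq of assembly Zm-B73-REFERENCE-NAM-5.0. Members and lists were chosen with earlier results of these data known. Named were all core protein and ribosomal RNA rows, the 10 rows with most counts in either group, the 5 largest rises and falls among rows with at least 10 counts in each library, rows at 0 in one group and at least 10 counts in every library of the other (0 rows), ZeamMp118, and of the nuclear genes tested with both leaf libraries the 3 largest called changes each way, with NDB4 and the alternative oxidases. Of the largest falls only rbcL-ct was called. Other scalings, filters and tools, library omissions and a replicate block were tried.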

Additional observations from a re-analysis of the deposited data

How the results depend on the processing

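The limits are 1 leaf library, single-digit leaf counts for many members, and reads shared between repeats and with the plastid genome. The log2 ratio of the mitochondrial share, averaged over both protoplast libraries, was 1.12, and it lay between 1.05 and 1.42 under the other denominators and row choices, within the SD of 0.87 between the protoplast libraries. Without protoplast replicate 1 or 2 it was 1.73 or 0.51. The 49 members called higher became 29 with DESeq2, 26 with at least 10 counts in every library and 27 with at least 10 in leaf 2, where fewer rows were tested, and 47 to 54 otherwise. The share of all genes called was not computed for these other settings. The 1 member called lower became 3 without TMM. With 1 protoplast library left out there is no test.

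Relative to the mitochondrial total, the 0 higher and 0 lower calls became 5 higher and 10 lower with TMM among mitochondrial rows, and 5 higher and 5 lower without rrn16-ct. The cause of these changes was not tested, and the share of all genes called was not computed for these settings. In the same order, and then without rows of chloroplast origin and unnamed rows, log2 values on this scale turned to -0.54, -0.16 and -0.029 for rrn26, -0.72, -0.33 and -0.13 for rps3, and -0.39, -0.038 and -0.025 for ENSRNA049457570. With TMM among mitochondrial rows they turned to -0.30 for nad9, -0.093 for nad7 and -0.10 for mat-r. On the whole-library scale, orf99-b1 turned to -0.12 without TMM, 14 other values lost their call and 5 gained one, for rrn16-ct, rps7 and orf134-a-ct.

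The 4-library fit called 1770 genes higher and 2110 lower. With the replicate block it called 1731 and 2029, and deviations of same-numbered libraries correlated at -0.12. With the pairs crossed, a choice made after seeing the data, it called 1774 and 2128. Leaving out 1 library gave 1582 to 1885 higher and 1906 to 2211 lower. No paired analysis was possible for the members because they have 1 leaf library.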
